A study of Mus musculus with 9 samples.

Results

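Of the 36119 genes in the deposited table, 10 encode the transcription factors described here: the AP-1 subunits Fos, Fosl1, Fosl2, Jun, Junb and Jund, the zinc finger proteins Egr1, Klf4 and Klf6, and Myc. They were taken by gene name, and all 10 were among the 18895 genes tested. The RNA came from whole livers of male WT C57BL/6J mice aged 6 to 8 weeks, with 3 mice and 1 library each in 3 groups. ZnPP+OA mice were injected with protoporphyrin IX zinc (ZnPP), an inhibitor of heme oxygenase-1 (HO-1), at 20 mg/kg and gavaged 2 h later with oleanolic acid (OA), a plant triterpenoid that causes cholestatic liver injury. OA mice received OA, at 295.5 mg/kg in the sample titles and 295.92 mg/kg in the treatment protocol. Cont mice received corn oil in place of OA, and saline was the substitute for ZnPP. Treatment lasted 4 days in every group, and the methods describe a fast before the livers were taken. No group received ZnPP alone, so the effect of ZnPP on these factors without OA was not measured here.

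AP-1 is a dimer of a Fos protein and a Jun protein, or of a pair of Jun proteins, that binds short palindromic elements in enhancers and promoters. Fos, Jun, Junb, Egr1, Klf4, Klf6 and Myc are known as immediate early genes, which are transcribed within minutes of growth factor, cytokine or stress signals through MAP kinases and serum response factor, without new protein synthesis, and whose mRNA is usually short-lived. In the liver they are known for their induction after partial hepatectomy, toxic injury and bile duct obstruction. Jund is expressed more steadily than the other AP-1 genes in many tissues.

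The promoters of 4 of the factors are printed because Fos, Fosl2 and Klf6 were 3 of the genes called lower in ZnPP+OA livers than in OA livers, and Klf4 was the factor that was not higher in OA livers. Each window runs from 250 bases before to 50 bases after the transcription start in the RefSeq annotation of GRCm38.p6, 5′ to 3′ on the gene's own strand. RefSeq windows were matched for 7 of the 10 factors. That of Jund (chr8:70697489-70697788) ends before the GENCODE start of Jund given with its levels, so it is not the region around that start, and that of Fosl2 lies inside the GENCODE span of the gene. Capitals mark every match, on either strand, to the 11 motifs searched. The Fos window is chr12:85473640-85473939 on the plus strand, the Fosl2 window chr5:32136222-32136521 on the plus strand, the Klf6 window chr13:5861239-5861538 on the plus strand and the Klf4 window chr4:55532426-55532725 on the minus strand.
Fos: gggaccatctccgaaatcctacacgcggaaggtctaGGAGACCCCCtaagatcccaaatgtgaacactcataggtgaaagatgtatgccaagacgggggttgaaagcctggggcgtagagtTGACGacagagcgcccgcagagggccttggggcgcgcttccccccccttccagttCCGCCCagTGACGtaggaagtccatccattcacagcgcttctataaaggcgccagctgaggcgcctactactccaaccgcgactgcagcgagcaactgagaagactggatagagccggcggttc
Fosl2: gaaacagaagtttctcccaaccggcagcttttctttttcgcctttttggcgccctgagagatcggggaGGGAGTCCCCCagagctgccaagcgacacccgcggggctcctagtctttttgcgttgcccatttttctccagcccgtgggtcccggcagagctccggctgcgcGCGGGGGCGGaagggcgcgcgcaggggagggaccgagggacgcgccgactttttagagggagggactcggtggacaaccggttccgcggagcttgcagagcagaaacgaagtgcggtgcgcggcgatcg
Klf6: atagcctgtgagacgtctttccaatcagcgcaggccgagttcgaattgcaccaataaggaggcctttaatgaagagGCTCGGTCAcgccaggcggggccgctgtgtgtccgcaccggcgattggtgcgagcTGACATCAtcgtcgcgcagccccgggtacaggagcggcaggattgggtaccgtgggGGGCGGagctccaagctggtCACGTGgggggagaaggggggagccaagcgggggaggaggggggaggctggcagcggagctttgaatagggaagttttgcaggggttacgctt
Klf4: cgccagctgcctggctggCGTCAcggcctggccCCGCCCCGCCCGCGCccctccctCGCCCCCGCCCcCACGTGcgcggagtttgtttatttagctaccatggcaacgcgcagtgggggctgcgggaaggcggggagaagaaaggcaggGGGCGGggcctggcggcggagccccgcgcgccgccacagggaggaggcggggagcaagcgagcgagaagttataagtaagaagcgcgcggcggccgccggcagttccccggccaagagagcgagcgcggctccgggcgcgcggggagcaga

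The motifs were TGANTCA (the AP-1 element), TGACGTCA (the cyclic AMP response element), TGACG (its shorter form, which the full element contains), TGACATCA (a Jun and ATF element), TGACNNNGC (the core of the antioxidant response element), CACGTG (the E-box of Myc and Max), GCGNGGGCG (the Egr element, which can overlap a GC box), GGGCGG (the GC box), TTCNNNGAA (the Stat element), the CArG box of serum response factor and the NF-kappa B element. In Fos, the capitals are an NF-kappa B element, TGACG at 2 places and a GC box. In Fosl2, they are overlapping NF-kappa B matches, and an Egr element that runs into a GC box. In Klf6, they are TGACNNNGC on the minus strand, TGACATCA, a GC box and CACGTG. In Klf4, they are TGACG, 4 GC boxes, 2 Egr elements and CACGTG. Over the 7 windows, GGGCGG matched in 5, against 35.7% of all 32851 windows of that length, TGACG in Fos, Junb and Klf4 (20.8% of all windows), TGACATCA in Jun and Klf6 (3.62%), CACGTG in Klf4 and Klf6 (7.15%), GCGNGGGCG in Fosl2 and Klf4 (5.55%), the NF-kappa B element in Fos and Fosl2 (8.46%) and TGACNNNGC in Klf6 (12.4%). The Jund window held none of the 11 motifs. None of the 7 windows held TGANTCA (7.81% of all windows), TGACGTCA (1.79%), TTCNNNGAA (8.3%) or the CArG box (1.63%). Sites beyond these windows, and the factors without a window, were not searched. No motif was shared by Fos, Fosl2 and Klf6 other than the GC box, which the Klf4 window held as well.

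Libraries held 32639438 to 85060187 counts. Mitochondrial RNA and its listed nuclear copies took 73.9% to 83.8% of counts in ZnPP+OA libraries, 17.3% to 47.3% in OA libraries and 53.3% to 91.5% in Cont libraries, so that 5291164 (Cont 2) to 70374019 counts (OA 3) came from other genes. Levels are therefore given as CPM, each count as a rate per library size after TMM scaling, a scaling by the bulk of genes that do not differ between libraries. Differences were tested with edgeR's quasi-likelihood F test over all genes, and a gene was called at a Benjamini-Hochberg adjusted p under 0.05. Scaling by library totals alone shifts the all-gene median by 1.39 log2 units in OA against Cont and by -1.78 in ZnPP+OA against OA, and fold changes here are relative to the TMM scale. Hepatocyte markers were present in every library, with a summed level of 20655 to 26652 CPM in ZnPP+OA, 15852 to 28605 CPM in OA and 20731 to 64141 CPM in Cont livers. In OA against Cont, 1 of these 10 markers had a positive log2 fold change, and the list median was -0.79. There, edgeR called 1 lower and DESeq2 called 6. In ZnPP+OA against OA the median was 0.35, with 0 called by edgeR or DESeq2.

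OA livers had more mRNA of most of these factors than Cont livers. Of the 10 factors, 6 were called higher (Egr1, Fos, Myc, Jund, Klf6 and Junb) and 0 lower by edgeR, where 2.40% of all genes tested were called higher and 2.80% lower. In 9 of the 10, all but Klf4, each OA library was above each Cont library, as in 18.5% of all genes (10.6% of genes lay wholly lower). The median log2 fold change of the 10 was 1.61, against 0.09 over all genes tested. ZnPP+OA livers had less mRNA of most of them than OA livers: 4 of the 10 were called lower (Fos, Egr1, Fosl2 and Klf6) and 0 higher, where 1.26% of all genes were called lower and 1.60% higher. Again 9 of the 10, all but Klf4, did not overlap and were lower in each ZnPP+OA library, as in 19.2% of all genes (13.6% lay wholly higher). The median of the 10 was -1.79, against -0.07 over all genes. These comparisons share the OA libraries. Klf4 was called in neither comparison.

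**Figure D1:**
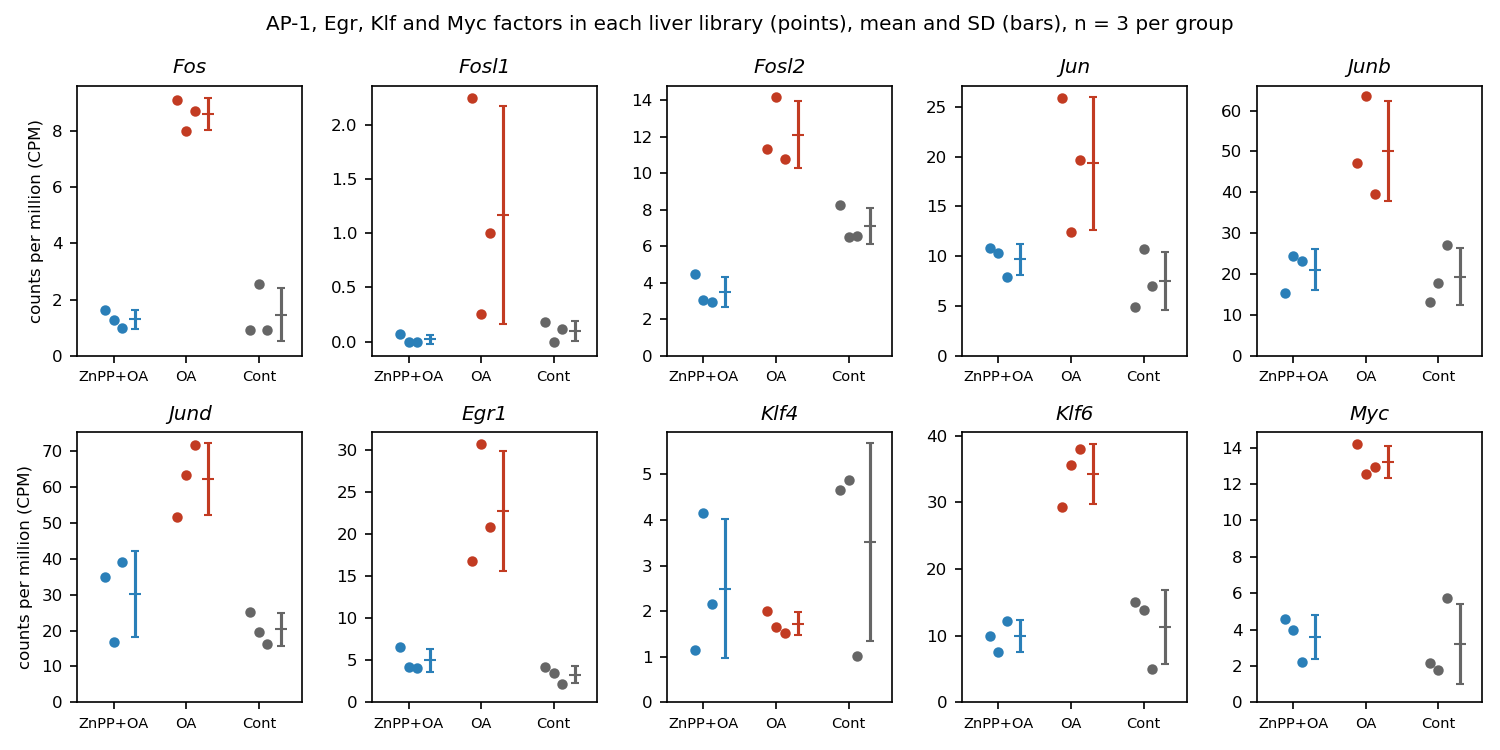
CPM (y axis, linear) of the 10 factors in ZnPP+OA, OA and Cont livers. Points are libraries and bars are the mean and SD (n = 3). The OA points stand above all other points for each factor except Klf4.

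Among the Fos genes, Fos, which binds DNA together with a Jun protein rather than with itself, had 1.63, 1.27 and 0.984 CPM in ZnPP+OA livers, 9.11, 8.01 and 8.72 CPM in OA livers and 0.938, 2.56 and 0.913 CPM in Cont livers. The 3 OA libraries were close to each other and all far above both other groups, which overlapped. In edgeR, the log2 fold change was 2.58 ± 0.52 (SE, adjusted p = 0.0141) in OA against Cont and -2.73 ± 0.52 (SE, adjusted p = 0.0168) for ZnPP+OA against OA. The gene lies at chr12:85473890-85477273 on the plus strand (GRCm38). Fosl2 (Fra-2, chr5:32135801-32157842, plus strand) encodes a Fos protein that lacks the strong activation domain of Fos. Its level was 4.47, 3.07 and 2.95 CPM in ZnPP+OA livers, 11.3, 14.2 and 10.8 CPM in OA livers and 8.26, 6.53 and 6.59 CPM in Cont livers. All 3 groups were separate, with ZnPP+OA lowest. Fosl2 was called lower in ZnPP+OA than in OA livers at -1.79 ± 0.34 log2 units (SE, adjusted p = 0.0168), while OA against Cont gave 0.76 ± 0.33 (SE, adjusted p = 0.194, edgeR).

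Fosl1 (Fra-1, chr19:5447547-5455946, plus strand), the other Fos protein without that domain, was at the limit of detection outside OA livers. It had 3, 0 and 0 counts in ZnPP+OA livers, 244, 37 and 215 counts in OA livers and 6, 0 and 8 counts in Cont livers. The OA counts were 0.253 to 2.24 CPM, and OA 1 alone held the highest. Summed over the libraries, the ratio of ZnPP+OA to OA was 0.0265 (95% exact binomial interval 0.00545 to 0.0780, for counting error only) and that of OA to Cont was 9.01 (interval 5.32 to 16.6). Fosl1 was called in neither comparison by edgeR (adjusted p of 0.128 in ZnPP+OA against OA and of 0.227 in OA against Cont), and with counts at 0 its fitted fold change depends on the prior count.

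The Jun genes encode the partners of the Fos proteins. Jun (chr4:95049034-95052222, minus strand), which can also bind DNA as a pair with itself, had 10.9, 10.3 and 7.90 CPM in ZnPP+OA livers, 25.8, 12.4 and 19.6 CPM in OA livers and 4.90, 10.7 and 7.00 CPM in Cont livers. Its lowest OA library stood only a little above the highest library of each other group. Jun was called in neither comparison by edgeR, with log2 fold changes of 1.37 ± 0.37 (SE, adjusted p = 0.0548) in OA against Cont and -0.99 ± 0.37 (SE, adjusted p = 0.17) for ZnPP+OA against OA. Junb (chr8:84974484-84978718, minus strand), a weaker activator than Jun that can oppose it, had 15.4, 24.5 and 23.3 CPM in ZnPP+OA livers, 47.3, 63.5 and 39.6 CPM in OA livers and 13.3, 17.9 and 27.0 CPM in Cont livers. OA libraries lay above both other groups, which overlapped. It was called higher in OA than in Cont livers (log2 fold change 1.37 ± 0.34, SE, adjusted p = 0.0364), and ZnPP+OA against OA gave -1.25 ± 0.34 (SE, adjusted p = 0.0717, edgeR).

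Jund (chr8:70698949-70700616, plus strand) had 34.9, 16.7 and 39.1 CPM in ZnPP+OA livers, 51.6, 63.2 and 71.7 CPM in OA livers and 25.3, 19.5 and 16.2 CPM in Cont livers. Its ZnPP+OA libraries spread widely, from within the Cont range to above it. The log2 fold change was 1.61 ± 0.35 (SE, adjusted p = 0.0201) in OA against Cont, which was called higher, and -1.04 ± 0.34 (SE, adjusted p = 0.128) for ZnPP+OA against OA, which was not called (edgeR). By FPKM, which are per length, Jund had the highest mean level of the 10 factors in each group, at 11.8 ± 6.45 FPKM in ZnPP+OA, 79.6 ± 25.3 FPKM in OA and 9.50 ± 5.89 FPKM in Cont livers (SD, n = 3 each). Junb came next in each group, overlapped Jund in each of the 3, and had 5.51 ± 1.44, 45.6 ± 13.8 and 7.02 ± 6.06 FPKM in ZnPP+OA, OA and Cont livers (SD, n = 3 each). Fosl1 was lowest in each group, with a mean of 0.00713 FPKM in ZnPP+OA, 1.10 FPKM in OA and 0.0442 FPKM in Cont livers.

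In OA livers the order of mean FPKM below Junb was Klf6 (16.6), Jun (12.3), Egr1 (10.9), Myc (10.1), Fos (7.64), Fosl2 (2.63), Klf4 (1.17) and Fosl1 (1.10). Neighbours whose libraries did not overlap in that order were Junb and Klf6, Fos and Fosl2, and Fosl2 and Klf4, while the other neighbours overlapped. In ZnPP+OA livers the order was Jund, Junb, Jun (1.84), Klf6 (1.43), Myc (0.792), Egr1 (0.693), Klf4 (0.451), Fos (0.332), Fosl2 (0.222) and Fosl1, in which Junb and Jun, and Fosl2 and Fosl1, did not overlap. In Cont livers it was Jund, Junb, Klf6 (1.77), Jun (1.61), Myc (1.12), Klf4 (0.736), Fosl2 (0.585), Egr1 (0.551), Fos (0.361) and Fosl1, and only Fos and Fosl1 did not overlap. FPKM were not corrected for the mitochondrial share, so FPKM levels are ordered here within a group and not compared between groups.

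Egr1 (chromosome 18, 34859823 to 34864984, plus strand), a zinc finger activator of growth and matrix genes that is known to be induced in cholestasis, was called higher in OA than in Cont livers in each alternative run. Its level was 6.62, 4.24 and 4.10 CPM in ZnPP+OA livers, 16.8, 30.7 and 20.8 CPM in OA livers and 4.26, 3.48 and 2.21 CPM in Cont livers. OA libraries were all above the others, and the ZnPP+OA and Cont ranges overlapped. The log2 fold change was 2.79 ± 0.39 (SE, adjusted p = 0.00218) in OA against Cont and -2.19 ± 0.38 (SE, adjusted p = 0.0131) for ZnPP+OA against OA (edgeR).

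Klf6 (chr13:5861482-5870394, plus strand), an activator that is induced in injured liver, had 10.001, 7.55 and 12.2 CPM in ZnPP+OA livers, 29.3, 35.5 and 38.02 CPM in OA livers and 15.1, 13.9 and 4.94 CPM in Cont livers. OA libraries lay clear of both other groups. It was called in both comparisons by edgeR, at 1.60 ± 0.40 log2 units (SE, adjusted p = 0.0354) in OA against Cont and -1.79 ± 0.40 (SE, adjusted p = 0.0313) for ZnPP+OA against OA. Klf4 (chr4:55527143-55532466, minus strand), known for growth arrest in epithelia, had 1.16, 4.17 and 2.16 CPM in ZnPP+OA livers, 2.01, 1.66 and 1.52 CPM in OA livers and 4.66, 4.88 and 1.03 CPM in Cont livers. Its OA libraries were within the Cont range, and Cont 3 was its lowest library. It gave -1.02 ± 0.67 (SE, adjusted p = 0.409) in OA against Cont and 0.52 ± 0.66 (SE, adjusted p = 0.76) for ZnPP+OA against OA (edgeR). Its sign in both comparisons turned with library totals alone, at 0.66 in OA against Cont and at -1.37 in ZnPP+OA against OA.

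Myc (chr15:61985391-61990374, plus strand), which drives ribosome and nucleotide synthesis with its partner Max, had 4.59, 3.99 and 2.24 CPM in ZnPP+OA livers, 14.2, 12.5 and 12.9 CPM in OA livers and 2.15, 1.77 and 5.75 CPM in Cont livers. OA libraries were close together and above all others. Myc was called higher in OA than in Cont livers (log2 fold change 2.01 ± 0.48, SE, adjusted p = 0.0291). ZnPP+OA against OA gave -1.87 ± 0.47 (SE, adjusted p = 0.0551, edgeR) and was not called.

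**Figure D2:**
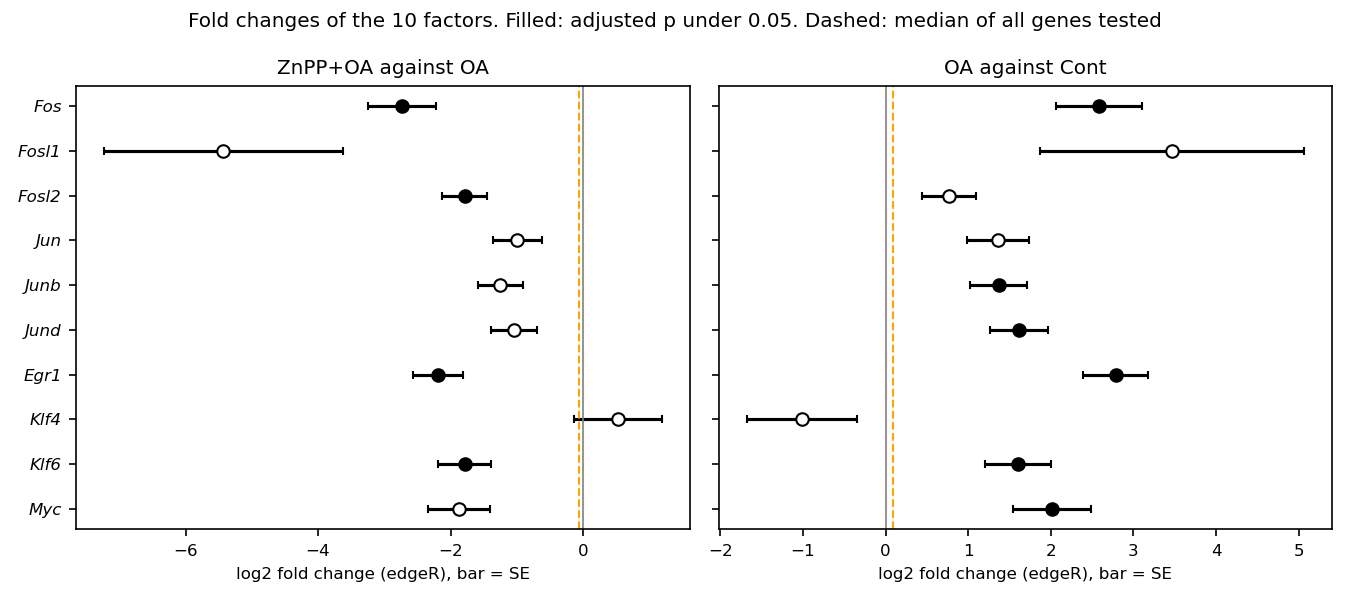
The log2 fold change (x axis) of each factor with its SE, for ZnPP+OA against OA and OA against Cont, from edgeR (3 libraries a group). Filled points passed the threshold (4 and 6 of 10 factors) and the dashed lines are the medians of all genes, at -0.07 and 0.09.

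Between ZnPP+OA and Cont livers, edgeR called 0 of the 10 factors and 0 genes of all tested, which is 0% in either direction, while 1542 genes had an unadjusted p below 0.05 and the lowest adjusted p was 0.571. DESeq2 called 140 genes and 0 of the factors. Among the factors, only Fosl2 had an unadjusted p under 0.05. It was lower in each of the 3 ZnPP+OA libraries, at -1.03 ± 0.33 log2 units (SE, adjusted p = 0.571, edgeR). Genes that lay wholly lower in ZnPP+OA were 4.52% of all genes and those wholly higher 5.74%. The other 9 factors overlapped. Their log2 fold changes were positive for Jun, Junb, Jund, Egr1 and Myc and negative for Fos, Fosl1, Klf4 and Klf6, and the median of the 10 was -0.01. With Cont 1 and Cont 2 left out, which leaves Cont 3 alone in its group, the sign turned for Fos, Junb, Klf4, Klf6 and Myc. The SEs were 0.33 to 0.67 for the 9 factors other than Fosl1. Differences well above the SE were not called either, as for Fosl2. Jund, at 0.57 ± 0.34 log2 units (SE, adjusted p = 0.688, edgeR), was another. The absence of calls therefore does not show that the levels were equal.

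The calls against OA changed when single libraries were left out, for the factors and over all genes. Without OA 2, or without OA 3, edgeR called Egr1 alone in OA against Cont, and 0 of the factors in ZnPP+OA against OA, where 9 had an unadjusted p under 0.05 in either case. In OA against Cont, 3 factors were called without Cont 2 (Fos, Jun and Egr1). In ZnPP+OA against OA, 0 were called without ZnPP+OA 2 or without ZnPP+OA 3, with 9 and 8 at an unadjusted p under 0.05. Egr1 was called higher in OA against Cont in all 23 alternatives run, and Fos in 21 of 23. In ZnPP+OA against OA, Fos, Fosl2 and Egr1 were each called lower in 19 of 23. The direction of each factor called in a comparison was the same in each alternative run. With mitochondrial genes and their copies left out, the same 6 and the same 4 factors were called.

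**Figure D3:**
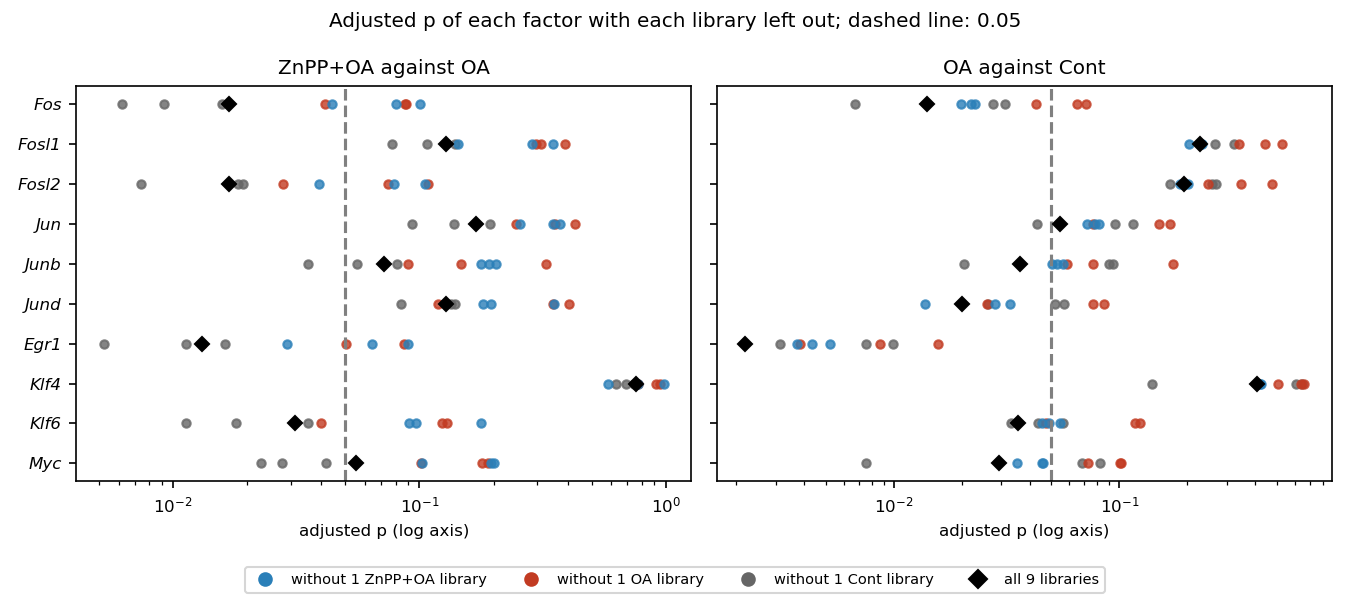
Adjusted p (x axis, log scale) of each factor with all 9 libraries (diamonds) and with each library left out in turn (circles, coloured by the group of that library). The dashed line is 0.05. Egr1 stays left of it in OA against Cont whichever library is missing. In ZnPP+OA against OA, Fos, Fosl2, Egr1, Klf6, Myc and Junb have points on both sides of it. Of these, Myc and Junb were not called with all 9 libraries.

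Over the 9 libraries, the factors whose log2 CPM profiles lay closest were Jund and Klf6, with a root mean square difference of 0.46 log2 units after each was centred on its own mean, and Jun and Junb, Egr1 and Klf6, and Fos and Egr1, each at 0.56. Fosl1 and Klf4 were farthest apart, at 2.63. Among the 7604 protein-coding genes that averaged 5 CPM or more, Cd163 was among the nearest to Fos (0.32). The nearest to Fosl2 were Hip1 (0.24) and Sem1 (0.27), to Jun Gnl3 (0.23) and Capn2 (0.25), to Junb Ifitm2 (0.30) and Nfkbiz (0.31), and to Jund Tpd52 and Cdkn1a (0.22 each). The nearest to Egr1 were Ccl9 (0.34) and Cstb (0.35), to Klf4 Gid4 (0.38) and Cyp2c70 (0.43), to Klf6 Dusp6 (0.27) and Msr1 (0.29) and to Myc Adam10 (0.32) and Plpp2 (0.33). The nearest to Fosl1, Rgs1 (1.22) and Gclc (1.32), were much farther from it. Cd163 and Msr1 are macrophage scavenger receptors and Dusp6 is a phosphatase of ERK.

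The levels of macrophage markers moved with the factors. The 9 Kupffer cell markers summed to 267 to 410 CPM in ZnPP+OA livers, 775 to 1098 CPM in OA livers and 164 to 372 CPM in Cont livers, of which 6 were called higher in OA against Cont and 3 lower in ZnPP+OA against OA. The 10 monocyte and macrophage markers summed to 102 to 120 CPM in ZnPP+OA livers, 254 to 479 CPM in OA livers and 65.4 to 122 CPM in Cont livers, of which 7 were called higher in OA against Cont and 5 lower in ZnPP+OA against OA. The 11 neutrophil markers summed to 13.0 to 18.2 CPM in ZnPP+OA livers, 19.0 to 64.6 CPM in OA livers and 3.87 to 20.4 CPM in Cont livers. Of these, Camp was at 0 in all ZnPP+OA and OA libraries, and Mpo, Elane, Ly6g and Ngp were at 0 in all Cont libraries. Cholangiocyte markers summed to 154 to 190 CPM in ZnPP+OA livers, 184 to 296 CPM in OA livers and 56.8 to 122 CPM in Cont livers. Endothelial cell markers summed to 129 to 168 CPM in ZnPP+OA, 188 to 281 CPM in OA and 142 to 220 CPM in Cont livers. Stellate cell markers summed to 182 to 220 CPM in ZnPP+OA, 222 to 330 CPM in OA and 126 to 233 CPM in Cont livers. For both, each OA library was above each ZnPP+OA library, while OA and Cont overlapped. The part of these markers in the differences of the factors was not tested. In whole liver, fewer cells of a type and less RNA per cell cannot be told apart. The mitochondrial share was also lowest in OA livers. The same factors were called with those genes left out, a step that moved the all-gene medians by only -0.03 and 0.02 log2 units. That run cannot separate the share from the group, since each OA library had a lower share than each other library.

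**Figure D4:**
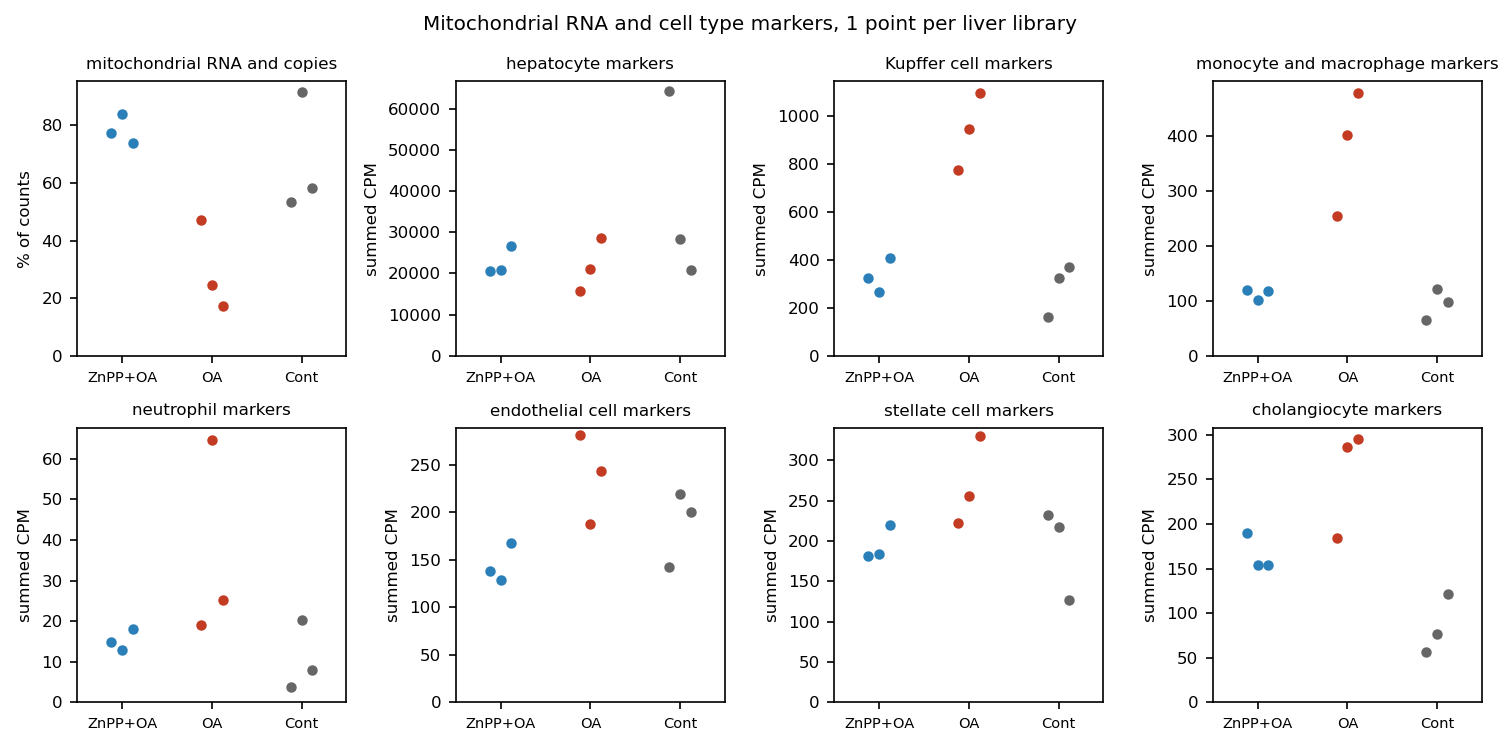
The share of mitochondrial RNA (per cent of counts) and the summed CPM of 7 cell type marker lists, with 1 point per library of ZnPP+OA, OA and Cont livers. The OA points are highest for Kupffer and monocyte and macrophage markers, and lowest for the mitochondrial share.

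Genes that share the pathway were taken from lists. Among 10 other AP-1 factors and AP-1 binding bZIP factors, 1 was called higher in OA than in Cont livers and 2 lower in ZnPP+OA than in OA livers. Atf3, a stress-induced repressor that pairs with Jun proteins, had 5.70, 0.918 and 3.28 CPM in ZnPP+OA livers, 21.4, 8.94 and 17.1 CPM in OA livers and 1.69, 2.14 and 1.897 CPM in Cont livers. It passed in both comparisons, with log2 fold changes of 3.05 ± 0.58 (SE, adjusted p = 0.0112) in OA against Cont and -2.25 ± 0.56 (SE, adjusted p = 0.0492) for ZnPP+OA against OA (edgeR). Fosb, the remaining Fos gene, had 3, 0 and 0 counts in ZnPP+OA livers, 180, 348 and 661 counts in OA livers and 10, 16 and 8 counts in Cont livers. It was called lower in ZnPP+OA than in OA livers (adjusted p = 0.0314, edgeR), at a ratio of summed counts, scaled by library size, of 0.0111 (95% exact binomial interval 0.00228 to 0.0324, for counting error only). Jdp2 and Maff, a repressor partner of Jun and a small Maf protein, were not called in either comparison, and their OA libraries lay above all libraries of both other groups.

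Of 12 other Klf factors tested, 1 was called in each comparison, in opposite directions. Klf15, a regulator of gluconeogenesis and amino acid breakdown in fasting, had 29.6, 36.8 and 29.9 CPM in ZnPP+OA livers, 12.1, 6.31 and 8.93 CPM in OA livers and 24.3, 24.2 and 39.0 CPM in Cont livers. It was lower in OA than in Cont livers (log2 fold change -1.68 ± 0.33, SE, adjusted p = 0.0127) and higher in ZnPP+OA than in OA livers (1.82 ± 0.33, SE, adjusted p = 0.0151, edgeR), the reverse of Klf6. Of 4 other Egr and Nab genes tested, of 12 genes of the Myc network (Max, Mnt, Mlx and others) and of 21 upstream kinases and ternary complex factors, 0 were called in either comparison by edgeR or by DESeq2 (which gave no adjusted p for 1 Myc network gene), and their medians in OA against Cont were 0.33, 0.71 and 0.30. An unadjusted p under 0.05 was found for 0, 1 and 3 of them in OA against Cont, and for 0, 0 and 2 in ZnPP+OA against OA. Max, the partner of Myc, gave 0.71 ± 0.36 (SE, adjusted p = 0.273) for OA against Cont. Mycn had 0, 10 and 0 counts in ZnPP+OA livers, 12, 20 and 28 counts in OA livers and 0, 0 and 0 counts in Cont livers, and it was not called in OA against Cont (adjusted p = 0.227, edgeR).

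Of 28 other immediate early and feedback genes, 3 were called higher in OA than in Cont livers (Btg1, Dusp6 and Btg2) and 3 lower in ZnPP+OA than in OA livers (Btg1, Dusp6 and Dusp1), with list medians of 0.91 and -1.11. Dusp6, which dephosphorylates ERK, had 6.01, 5.51 and 10.4 CPM in ZnPP+OA livers, 21.9, 22.1 and 31.5 CPM in OA livers and 8.17, 11.4 and 5.08 CPM in Cont livers. It gave 1.62 ± 0.38 (SE, adjusted p = 0.0278) in OA against Cont and -1.78 ± 0.38 (SE, adjusted p = 0.0274) for ZnPP+OA against OA. Btg1, an inhibitor of proliferation, gave 1.86 ± 0.32 (SE, adjusted p = 0.00628) and -1.72 ± 0.32 (SE, adjusted p = 0.0156). Dusp1, a phosphatase of p38 and JNK, was called lower in ZnPP+OA than in OA livers (log2 fold change -1.29 ± 0.32, SE, adjusted p = 0.0478, edgeR).

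Among 19 tested genes known as AP-1 targets, 5 were called higher in OA than in Cont livers (Cd44, Ccl2, Spp1, Mmp14 and Mmp7) and 1 lower in ZnPP+OA than in OA livers (Cd44), with medians of 1.61 and -0.99. Cd44, a receptor of hyaluronan, had 14.0, 8.97 and 13.9 CPM in ZnPP+OA livers, 32.1, 40.3 and 49.0 CPM in OA livers and 8.47, 10.6 and 9.19 CPM in Cont livers. It gave 2.105 ± 0.31 (SE, adjusted p = 0.00261) in OA against Cont and -1.72 ± 0.30 (SE, adjusted p = 0.0131) for ZnPP+OA against OA (edgeR). Ccl2, the monocyte chemokine, had 3.64, 1.38 and 4.32 CPM in ZnPP+OA livers, 18.2, 14.0 and 9.08 CPM in OA livers and 0.635, 2.14 and 0.628 CPM in Cont livers, and passed in OA against Cont only (adjusted p = 0.00566, and 0.0651 in ZnPP+OA against OA, edgeR). The difference between these 2 comparisons was not tested.

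Among 8 tested genes known as Egr1 targets, 1 was called higher in OA than in Cont livers and 1 lower in ZnPP+OA than in OA livers by edgeR, with medians of 0.19 and -0.43. Tnf, an inflammatory cytokine, was not among them. It had 0, 0 and 0 counts in ZnPP+OA livers, 63, 298 and 96 counts in OA livers and 0, 0 and 33 counts in Cont livers, so that OA 2 held most of its counts (adjusted p = 0.107 in ZnPP+OA against OA, edgeR). Of 26 Myc target genes, edgeR called 1 in OA against Cont and in ZnPP+OA against OA, where DESeq2 called 4 and 3 of them. The gene called by edgeR was Nme1, a nucleoside diphosphate kinase, both times. It had 17.2, 8.86 and 11.6 CPM in ZnPP+OA livers, 27.7, 58.9 and 51.2 CPM in OA livers and 8.04, 10.006 and 19.0 CPM in Cont livers. It gave 1.89 ± 0.41 (SE, adjusted p = 0.0208) in OA against Cont and -1.87 ± 0.41 (SE, adjusted p = 0.0309) for ZnPP+OA against OA (edgeR). Against Cont, ZnPP+OA livers had 0 calls in the 9 lists by edgeR, 0 to 3 genes of a list had an unadjusted p under 0.05, and DESeq2 called 1 gene, Klf10, a TGF-beta induced repressor. Klf10 had 6.15, 5.97 and 7.85 CPM in ZnPP+OA livers, 9.24, 9.53 and 11.1 CPM in OA livers and 16.1, 17.4 and 16.0 CPM in Cont livers, so the 3 groups were separate, and DESeq2 gave -1.36 ± 0.29 log2 units (SE, adjusted p = 0.00287) for ZnPP+OA against Cont.

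**Figure D5:**
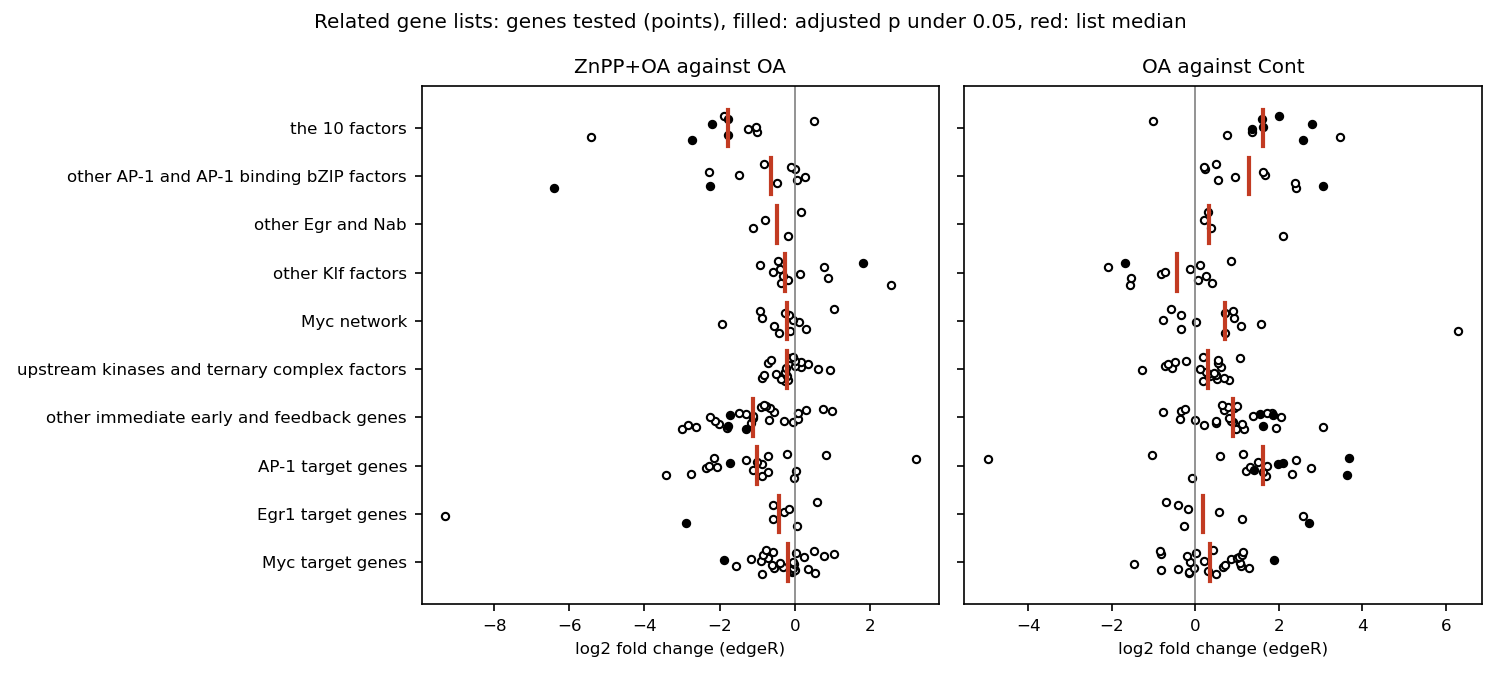
The log2 fold change (x axis) of each gene tested in the 10 factors and 9 related lists, for ZnPP+OA against OA and OA against Cont. Filled points passed the threshold and red bars are list medians. The medians of the 10 factors stand at -1.79 and 1.61, and those of the upstream kinases close to 0, at -0.20 and 0.30.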

How the data were processed

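Liver RNA with RIN above 7 was poly(A)-selected, made into dUTP-stranded libraries and read as pairs of 150 bases. The table deposited by the authors holds counts per gene and FPKM for 36119 genes. Per the submitters' notes, the build was mm10 and the tools included StringTie 2.1.6, HISAT2 2.2.1, cutadapt 1.9, edgeR and DESeq2. The tool behind the counts and its strand setting are not given in the sources used, so reads of a gene and an overlapping antisense gene may not be told apart. Gene coordinates of the table equal GENCODE M21 for 772 of 34019 genes, so positions are from GENCODE M21 (GRCm38) by gene ID. No read was mapped again.

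Counts were filtered with filterByExpr (min.count 10, min.total.count 15), scaled with TMM and compared in edgeR 4.0.16, R 4.3.3 (1 fit of 3 groups, quasi-likelihood F test, p adjusted by Benjamini and Hochberg over 18895 genes). The SE is that of the log2 fold change. Promoters were from RefSeq (GRCm38.p6), and the motif letters were chosen with the results known. The NF-kappa B pattern was narrowed after a looser one, which matched in the same windows of Fos and Fosl2, had been searched. Each library is 1 mouse, as far as the labels say, and the biological coefficient of variation was 0.664, and 0.669 within ZnPP+OA, 0.421 within OA and 0.87 within Cont.

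Named genes were all 10 factors, up to 4 genes of each related list with the smallest unadjusted p in OA against Cont and in ZnPP+OA against OA, and for each factor the 2 protein-coding genes averaging 5 CPM or more whose centred log2 CPM (prior count 2) over the 9 libraries were nearest by root mean square difference. A gene that this rule names is not reported here. The factors and lists were chosen with earlier results of these data known. Same-numbered libraries did not deviate together (correlations of -0.101 to 0.014), so numbers were not taken as pairs. Alternatives were DESeq2 size factors, library totals alone, mitochondrial genes and their copies left out (also with the remaining totals alone, chosen after seeing the data), no filter, a minimum of 10 counts in each library, the test of DESeq2 1.42.0, and limma 3.58.1 with pseudocounts of 1 and 0.1 on log2 FPKM (filter: FPKM of 1 or more in 3 libraries, or none). Others were the 6 compared libraries alone, a replicate block, each library left out, Cont 1 and Cont 2 left out, and a log2 fold change of at least 1 as well. The fit was also run on counts simulated with its own estimates of spread and scaled library sizes. That simulation did not vary the mitochondrial share, so it cannot test how the scaling handles it.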

Additional observations from a re-analysis of the deposited data

How the results depend on the processing

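Of 680 values of single factors under 23 alternatives, 549 kept their direction and side of the threshold, 52 lost a call, 49 gained one and 30 turned direction, none of them called as reported. For OA against Cont, 6 factors were called as reported, 4 with DESeq2 size factors, 9 with library totals alone, 7 with no filter, with at least 10 counts in every library or with DESeq2, 8, 8 and 9 with limma on FPKM, 3 with the 6 compared libraries alone and 3 with Cont 1 and Cont 2 left out. That fit has 1 Cont library, which is assumed to vary like the other groups. With each library left out the count was 1 to 5, and 242 to 1372 over all genes. For ZnPP+OA against OA, 4 were called as reported, 9 with library totals alone, 7 with no filter, with DESeq2, with the 6 compared libraries alone and with Cont 1 and Cont 2 left out, 8 with limma on log2(FPKM + 1) and on log2(FPKM + 0.1), and 9 with limma without a filter. With each library left out the count was 0 to 6, and 45 to 1030 over all genes. In ZnPP+OA against Cont it was 0 in each alternative run. With the replicate block, 3 and 3 factors were called, and 578 and 287 genes in place of 984 and 542. In limma on log2(FPKM + 1) the median of all genes shifted by 1.10 and -1.20, so its calls include a shift shared by most genes. Of 10696 genes, that fit called 7350 higher in OA against Cont and 8163 lower in ZnPP+OA against OA. With a pseudocount of 0.1 these were 6394 and 6864 genes, and without a filter 6357 and 7629 of 32307. The 6 compared libraries alone gave 523 and 1490 calls over all genes. It shifted by -0.16 and 0.11 with DESeq2 size factors, and by 0.21 and -0.09 with mitochondrial genes left out and the remaining totals alone, where the same 6 and 4 factors were called. All-gene counts for OA against Cont were 3038 with library totals alone, 2121 with no filter and 2442 with DESeq2, against 984, and 454 of 984 were higher, against 2829 of 3038 with totals alone, 833 of 2442 with DESeq2, 316 of 950 with DESeq2 size factors and 562 of 906 with the remaining totals. For ZnPP+OA against OA they were 6435 (118 higher), 1470 and 1636, against 542 (303 higher).

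Klf4 turned direction in OA against Cont with library totals alone (0.66), in the 3 limma fits (0.37, 0.82 and 0.37) and with Cont 1 and Cont 2 left out (0.79), and in ZnPP+OA against OA with totals alone (-1.37), in the limma fits (-0.59, -1.26 and -0.59) and without ZnPP+OA 2 (-0.089). In ZnPP+OA against Cont, the turned values were, for Junb, -0.36 with totals alone, -0.022 in limma on log2(FPKM + 1) with and without a filter, -0.092 without Cont 1, -7e-04 without ZnPP+OA 2 and -0.37 with Cont 1 and Cont 2 left out. For Myc they were -0.50 with totals alone, -0.10 in the same limma fits, -0.095 without Cont 1, -0.14 without Cont 2, -0.068 without ZnPP+OA 1 and -0.68 with Cont 1 and Cont 2 left out. For Klf6 they were 0.099 without Cont 1, 0.0076 without Cont 2 and 0.9996 with both left out, for Fos 0.49 without Cont 2, 0.029 without ZnPP+OA 3 and 0.50 with Cont 1 and Cont 2 left out, and for Klf4 1.26 with both left out. With each library left out, Klf4 in ZnPP+OA against OA ranged between -0.089 and 0.84, and in ZnPP+OA against Cont Fos ranged between -0.39 and 0.49, Junb between -0.092 and 0.45, Klf6 between -0.54 and 0.099 and Myc between -0.14 and 0.88. The cause was not tested.

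With 3 libraries a group, many of these calls depended on which libraries were included, and why was not tested. Fosl1 had 0 to 8 counts a library outside OA livers and 37 to 244 counts in OA livers, and depth and spread between mice cannot be told apart as limits on its call.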
